A study of Homo sapiens with 9 samples.

Results

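The 3 untreated libraries of a 9-library series on SW620 cells are described here as a baseline transcriptome, with no contrast against the treated cultures. SW620 is an established line grown from a lymph node metastasis of a colon adenocarcinoma, labelled in the series as wild-type colon cancer cells. All cultures of the series were grown in suspension, in low attachment plates coated with Poly-HEME and in a DMEM/F12 medium with N2 supplement, glucose, insulin, basic FGF and EGF. The other 6 libraries came from cultures given streptomycin (SM) or dihydrostreptomycin (DSM) at 120 µM for 48 h. The untreated libraries were chosen by their label alone, so no measured value entered the choice. They are 3 biological replicates of 1 line, which limits every statement to this line in this medium. Poly(A) RNA was sequenced from a whole culture, so that fewer cells of a type and less RNA per cell cannot be told apart.

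The intestinal epithelium is renewed from stem cells at the crypt base, which are kept by Wnt signalling and carry the receptor LGR5. Their daughters become absorptive colonocytes, goblet cells, enteroendocrine cells and rarer types, and each lineage has its own transcription factors and secreted products. SW620 is known to carry truncated APC. Truncated APC leaves β-catenin free to drive TCF target genes without a Wnt ligand. Suspension culture with EGF and basic FGF in place of serum is commonly used to grow tumour cells as spheres and to favour cells with stem-like properties.

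Levels are given as CPM, the reads of a gene per 1000000 reads counted in its library, for replicates 1, 2 and 3 in that order. Because longer transcripts give more reads, levels are compared between genes only as CPM per kilobase of transcript, and ranks are among 26600 genes with a length. The libraries held 56583941 to 65562227 counted reads, so 1 CPM stood for 56.6 to 65.6 reads and a gene with no read lay under 0.0458 to 0.0530 CPM (a limit of 3 reads, covering counting error only). Replicate 1 stood apart from replicates 2 and 3. Among 10082 genes of at least 5 CPM in every library, it held the highest or lowest value for 8391 (83.2%). The median absolute log2 difference was 0.11 between replicates 1 and 2, 0.12 between 1 and 3, and 0.06 between 2 and 3. What sets replicate 1 apart was not tested. Single genes are therefore given by library in most sentences, while ranks, family shares and single values rest on the mean of the 3 libraries.

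Of 28307 genes in the table, 15456 (54.6%) were under 1 CPM in all 3 libraries and 12279 (43.4%) were at 1 CPM or more in all 3. The other 572 lay on both sides of that line, and 7277 (25.7%) had no read in any library. Among 19181 protein-coding genes the share under 1 CPM in all 3 was 39.1%, and among 4918 long noncoding RNAs it was 86.5%. Over 39 gene lists with 931 distinct members, 289 members were under 1 CPM in all 3 libraries, and 292 when replicate 1 was left out. Only 95 genes of the table had a mean of 1000 CPM or more, and none of its genes passed 10000 CPM. No protein-coding gene of the mitochondrial genome was among the 20 highest by CPM. Levels, shares and ranks therefore refer to the genes counted in the table. The 10 most abundant genes took 5.80%, 5.41% and 5.46% of the reads.

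**Figure D1:**
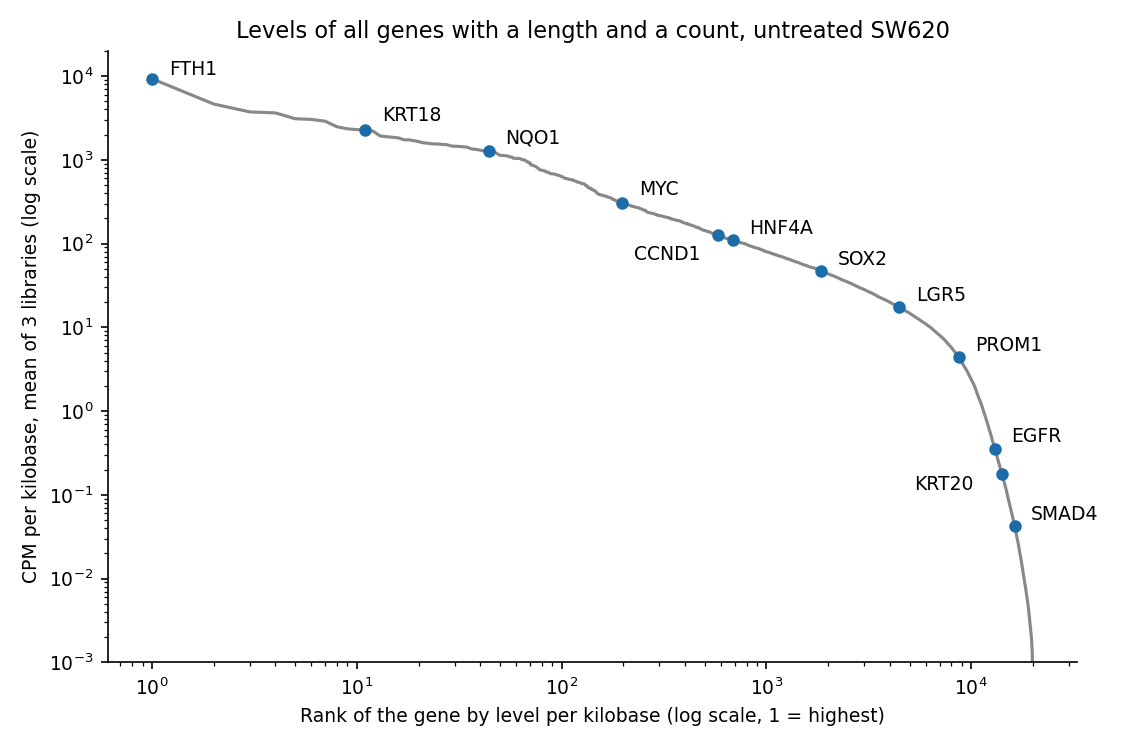
Mean CPM per kilobase of each gene with a length and a read (y axis, log scale) against its rank (x axis, log scale, 1 is highest), with 12 genes of the text marked. FTH1 stands at the top, the markers KRT18, NQO1 and MYC within the first 200 ranks, LGR5 and PROM1 in the middle, and EGFR, KRT20 and SMAD4 on the steep right end.

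The promoters of detected and of low genes were set side by side by base composition. RefSeq promoter windows of 300 bases (250 before to 50 after the annotated start, GRCh38.p14) were matched for 18884 genes, with 1 annotated start per gene. Protein-coding genes at 1 CPM or more in all 3 libraries had a median of 27 CG dinucleotides per window, against 8 for those under 1 CPM in all 3 and 5 for those with no read. At least 20 CG were found in 73.9% of the detected group, 29.4% of the group under 1 CPM, 20.4% of those with no read and 56.8% of all protein-coding windows. The sequence TATAAA, searched on both strands from 45 to 16 bases before the start, was in 1.94% of the detected group, 7.84% of the group under 1 CPM, 10.1% of those with no read and 4.22% of all protein-coding windows (3.70% of all windows, noncoding genes included). Short stretches of 130 bases, 100 before to 30 after the start, show both ends of this range and its exceptions. CG dinucleotides are in capitals.
ENO1: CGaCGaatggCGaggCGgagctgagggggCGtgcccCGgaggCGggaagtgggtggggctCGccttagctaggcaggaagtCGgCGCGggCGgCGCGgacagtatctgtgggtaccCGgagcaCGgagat
KRT20: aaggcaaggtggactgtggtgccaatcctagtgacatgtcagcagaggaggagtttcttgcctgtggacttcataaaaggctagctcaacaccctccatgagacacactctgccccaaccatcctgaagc
LCP1: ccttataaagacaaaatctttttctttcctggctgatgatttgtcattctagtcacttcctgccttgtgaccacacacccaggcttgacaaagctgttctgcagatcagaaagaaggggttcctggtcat
FOXA1: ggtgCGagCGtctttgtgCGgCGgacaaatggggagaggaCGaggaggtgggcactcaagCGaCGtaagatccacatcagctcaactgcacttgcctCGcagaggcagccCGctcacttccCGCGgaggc
SMAD4: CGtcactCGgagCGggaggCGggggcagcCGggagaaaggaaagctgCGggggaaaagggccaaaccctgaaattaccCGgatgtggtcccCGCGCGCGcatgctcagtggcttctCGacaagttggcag
ENO1, which encodes enolase of glycolysis, is shown as an abundant gene with a CG-rich start (chr1:8878657-8878786, minus strand, 32 CG per 300 bases, a mean of 3353 CPM). KRT20, a keratin of differentiated colonocytes, is shown as a low gene with a CG-poor start (chr17:40885213-40885342, minus strand, 2 CG, a mean of 0.312 CPM). LCP1, the leukocyte form of the actin bundler plastin, is shown because it was abundant with only 2 CG per 300 bases (chr13:46182148-46182277, minus strand, a mean of 647 CPM). FOXA1, a pioneer factor of endoderm (chr14:37595220-37595349, minus strand, 34 CG, a mean of 0.0742 CPM), and SMAD4, the shared mediator of TGF-β and BMP signals (chr18:51030113-51030242, plus strand, 28 CG, a mean of 0.368 CPM), are shown because both had CG-rich starts and were under 1 CPM in all 3 libraries. Single genes thus lay on both sides of the group medians. The 5 genes shown were chosen after their values were seen.

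The ferritin heavy chain, PTMA, an actin and a keratin held the first 4 ranks per kilobase, and below the first rank this depended on the length used. Over the 4 lengths ACTB ranked 2 to 3 and the keratin KRT8 3 to 17. FTH1, the ferritin heavy chain that stores iron, stood at 9219, 9818 and 9485 CPM and ranked first per kilobase in every library and under all 4 ways of measuring length. Its partner FTL, the ferritin light chain, stood at 1818, 1965 and 1994 CPM. PTMA, a small nuclear protein of proliferating cells, stood at 3647, 3414 and 3685 CPM and ranked 2 per kilobase, or 2 to 8 over the 4 lengths. The actins ACTB (7351, 6405 and 6492 CPM) and ACTG1 (5108, 4155 and 4195 CPM) also lay in the first 10 by their means, as did EEF1A1, the elongation factor that brings aminoacyl-tRNA to the ribosome (8488, 8502 and 8619 CPM). By library ACTG1 ranked 8, 12 and 12 and EEF1A1 11, 8 and 8. Over the 4 lengths ACTG1 ranked 9 to 11 and EEF1A1 8 to 13. EEF1A1 varied little between libraries, with 8536 ± 71.8 CPM (SD, n = 3). FTH1 at 9257 ± 292 CPM per kilobase and PTMA at 4625 ± 189.6 were further apart than their spread, whereas ACTB at 3725 ± 288 and KRT8 at 3624 ± 420.1 were not.

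Ribosomal protein genes gave 6.31%, 6.33% and 6.44% of all reads, and 82 of 86 were at 1 CPM or more in all 3 libraries. The median of their means was 641 CPM. For members with near-identical copies the low values, and so the summed share, are uncertain, since the handling of reads that match several genes is not given. They held 54 of the 100 highest ranks per kilobase and 6 of the first 20, led by RPL41 at 1906, 1739.5 and 1763 CPM and RPS2 at 2867, 2778 and 2878 CPM. Many ribosomal protein transcripts are known to begin with a run of pyrimidines that couples their translation to growth signals. CTTTC, searched on both strands within 20 bases of the start, was in 30 of 68 ribosomal protein windows (44.1%) and in 8.80% of all windows. The search also counted the reverse complement, a purine run in the transcript, and matches before the start. These shares are therefore not shares of transcripts that begin with a pyrimidine run. RPL41 is shown with this match in capitals because it was the most abundant ribosomal protein gene per kilobase (chr12:56116533-56116662, plus strand). Its match begins before the annotated start and runs into it.
RPL41: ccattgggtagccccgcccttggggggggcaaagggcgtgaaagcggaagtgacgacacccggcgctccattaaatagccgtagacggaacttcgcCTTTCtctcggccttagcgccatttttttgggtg
MTRNR2L9 ranked 13 per kilobase at 151, 151 and 130.4 CPM. It is a nuclear copy nearly identical to mitochondrial ribosomal RNA and its reference length is 75 bases, so both its reads and its rank are uncertain.

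The labelled cell type was checked against its defining genes, and keratins of simple epithelia were abundant. KRT8 and KRT18, the keratin pair of simple epithelia, stood at 7461, 6033 and 6276 CPM and 3932, 3379.6 and 3365 CPM. KRT18 ranked 11 per kilobase, or 8 to 11 over the 4 lengths. KRT19, another simple keratin, stood at 1885, 1315 and 1307 CPM, and these 3 keratins together took 1.33%, 1.07% and 1.09% of all reads. All 3 were highest in replicate 1. Of 30 genes for epithelial junctions and keratins, 4 (13.3%) were under 1 CPM in all 3 libraries, against 39.1% of protein-coding genes, and 17 had a mean of 100 CPM or more. EPCAM, the epithelial adhesion molecule, stood at 454, 432 and 421 CPM and CDH1, which encodes E-cadherin, at 338, 256 and 231 CPM. The desmosome linker DSP stood at 1111, 968 and 888 CPM and the tight junction claudin CLDN4 at 166, 141 and 127 CPM. The epithelial genes under 1 CPM included KRT20, the transcription factor GRHL2 and the pore-forming claudin CLDN2. Of the keratins of squamous and ductal epithelia, 4 of 12 were under 1 CPM, the basal keratin KRT5 stood at 2.84, 1.57 and 2.09 CPM and KRT7 at 22.3, 15.9 and 16.7 CPM, although KRT80 reached 286, 243 and 252 CPM.

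The list of intestinal transcription factors held 26 genes, including IHH, which is a secreted ligand. Of these, 7 (26.9%) were under 1 CPM in all 3 libraries, against 39.1% of protein-coding genes. A mean of 10 CPM or more was reached by 13. KLF5, a factor of proliferating crypt cells, stood at 275, 311 and 276 CPM. HNF4A, a nuclear receptor that specifies intestinal epithelium, stood at 255, 243 and 259.7 CPM, and SOX9, a factor of the crypt base, at 239, 204 and 212 CPM. KLF5 was highest in replicate 2 and SOX9 in replicate 1. CDX2, the caudal homeobox factor that sets intestinal identity, stood at 10.1, 12.5 and 15.8 CPM, with the lowest value in replicate 1. Per kilobase CDX2 reached 3.16 ± 0.714 CPM and HNF4A 109.8 ± 3.71 CPM (SD, n = 3), further apart than their spread. CDX1, the relative of CDX2, had no read in any library. FOXA2 stood at 88.8, 73.9 and 75.6 CPM while FOXA1 was under 1 CPM (2, 9 and 2 reads). The gut GATA factors GATA4 and GATA5 were under 1 CPM, with GATA6 at 6.10, 6.43 and 6.17 CPM.

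Markers of differentiated colonic cells were mostly under 1 CPM. In the absorptive list 19 of 28 genes (67.9%) were under 1 CPM in all 3 libraries, against 39.1% of protein-coding genes, including the carbonic anhydrases CA1, CA2 and CA4, the chloride exchanger SLC26A3, the brush border enzyme SI and the lectin LGALS4. Of the list, 8 genes were at 1 CPM or more in all 3 libraries. VIL1, villin, which bundles actin in microvilli, stood at 506, 433 and 488 CPM, and CDHR2, a cadherin that links microvilli, at 22.2, 20.5 and 25.96 CPM. The other 6 had means under 10 CPM. CEACAM5, the carcinoembryonic antigen, stood at 3.81, 1.93 and 3.77 CPM. Its lowest value was in replicate 2. In the goblet list 16 of 24 genes (66.7%) were under 1 CPM. The secreted mucin MUC2 had 5, 2 and 20 reads, and ATOH1, the factor that starts secretory differentiation, had none. The membrane mucin MUC13 stood at 114, 90.9 and 81.8 CPM, MUC1 at 47.9, 29.9 and 32.9 CPM, the trefoil peptide TFF3 at 17.3, 13.4 and 17.8 CPM and the secretory chaperone AGR2 at 17.7, 9.86 and 10.6 CPM. These genes were thus detected while MUC2, the gel-forming mucin of goblet cells, was under 1 CPM. Of 21 enteroendocrine genes 16 were under 1 CPM, with chromogranin B as CHGB at 5.86, 6.20 and 6.37 CPM and chromogranin A as CHGA at 0, 3 and 0 reads. Of 18 genes of Paneth, tuft and BEST4 cells 16 were under 1 CPM, among them the defensins DEFA5 and DEFA6 with no read, while LYZ, lysozyme, stood at 8.14, 5.48 and 4.71 CPM. Of the genes that define colonic epithelium, KRT20, CDX1, CA1 and SLC26A3 were thus under 1 CPM, whereas HNF4A, VIL1 and CDX2 were detected.

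**Figure D2:**
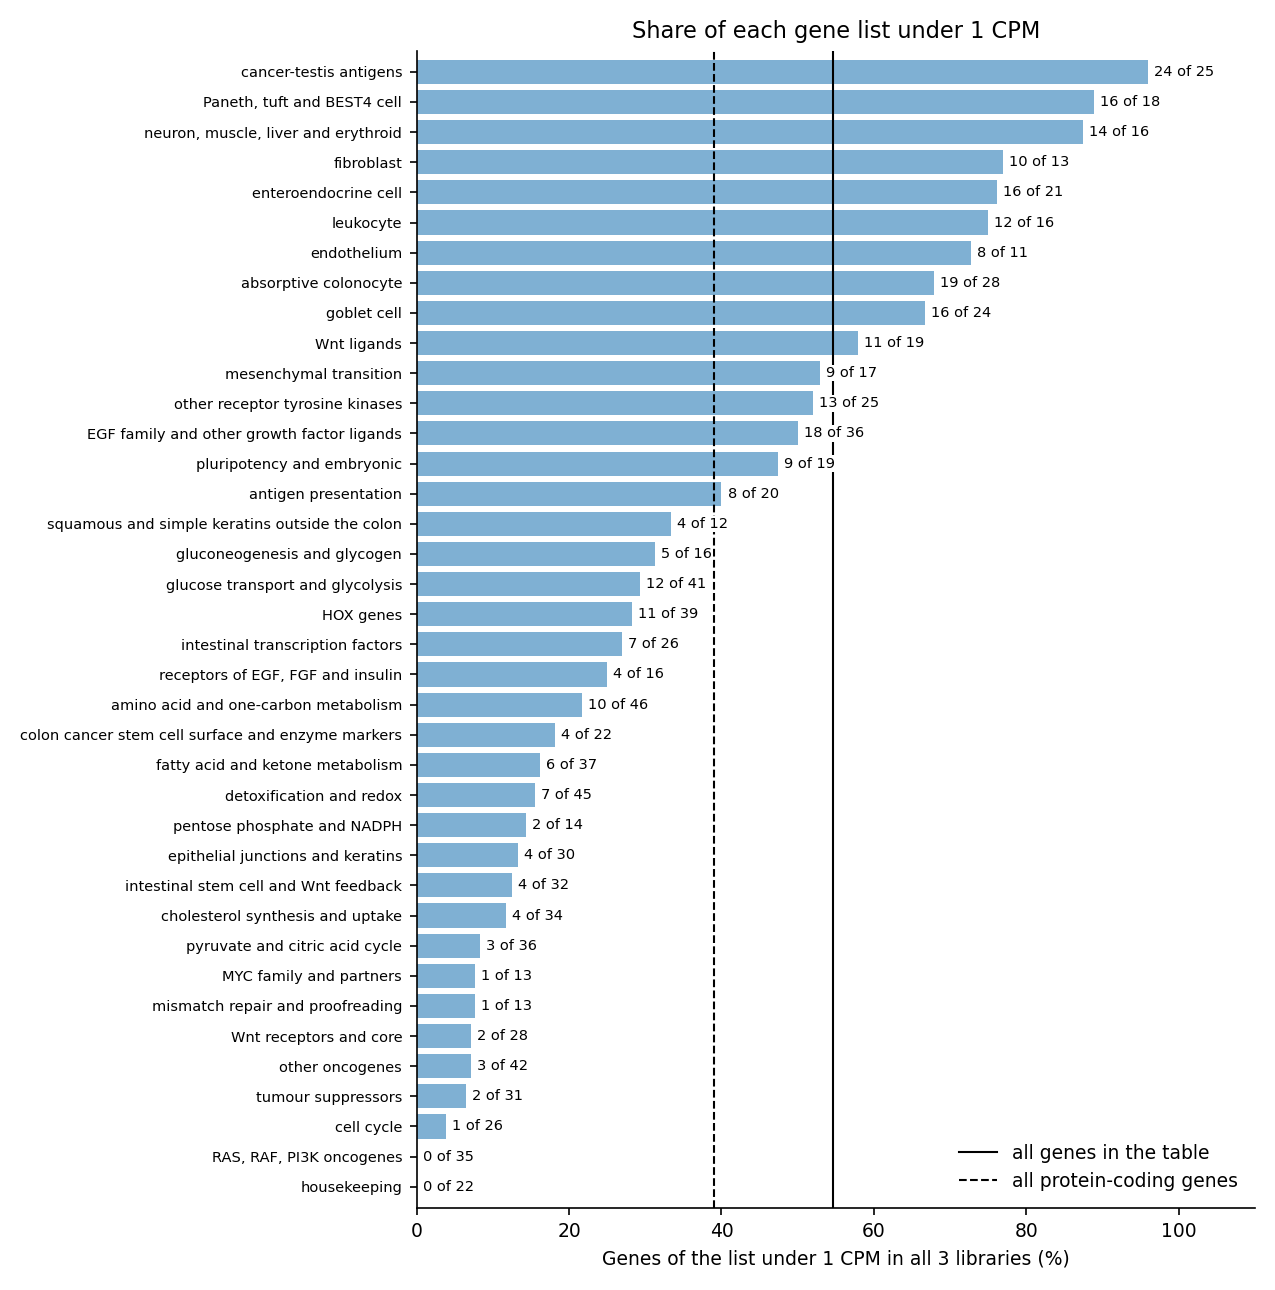
Share of each of 38 gene lists that was under 1 CPM in all 3 untreated libraries (x axis, percent), with the number of genes beside each bar. The solid line marks all genes in the table (54.6%) and the dashed line all protein-coding genes (39.1%). Lists of differentiated colonic cells, of fibroblast, vessel, blood and other organs, of Wnt ligands and of cancer-testis antigens lie to the right of both lines. Lists of mesenchymal transition (52.9%), other receptor kinases (52.0%), growth factor ligands (50%), pluripotency (47.4%) and antigen presentation (40%) lie between the lines, and all others to the left.

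Of 17 genes tied to epithelial-mesenchymal transition, 9 (52.9%) were under 1 CPM, against 39.1% of protein-coding and 54.6% of all genes, including N-cadherin CDH2 and the factors TWIST1 and ZEB2. VIM, the intermediate filament vimentin, stood at 1472, 1151 and 1027 CPM and ranked 96 per kilobase. S100A4, a calcium-binding protein of motile cells, stood at 382, 262 and 274 CPM. TNC, the matrix glycoprotein tenascin C, stood at 701, 339 and 273 CPM, so replicate 1 exceeded both others by more than they differed from each other. ZEB1, a repressor of CDH1, stood at 17.6, 17.2 and 16.6 CPM and SNAI1, another, at 24.1, 28.3 and 23.99 CPM. In the fibroblast list 10 of 13 genes were under 1 CPM, COL3A1 and DCN had no read, and COL1A1 stood at 13.1, 7.97 and 7.85 CPM.

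Markers of blood, vessel and other organs were mostly under 1 CPM. Of 16 leukocyte genes 12 (75%) were under 1 CPM, against 39.1% of protein-coding genes, and PTPRC, the pan-leukocyte antigen CD45, had 1, 1 and 1 reads. The other 4 leukocyte genes were at 1 CPM or more in all 3 libraries. LCP1 stood at 710.3, 639.7 and 592 CPM, the lysosomal CD68 at 12.2, 20.01 and 18.4 CPM, the actin regulator CORO1A at 8.39, 9.33 and 9.04 CPM and CD4 at 3.16, 2.79 and 2.80 CPM. Of 11 endothelial genes 8 were under 1 CPM, with KDR at no read, and 2 were at 1 CPM or more in all 3 libraries, VWF at 2.87, 2.17 and 1.98 CPM and EGFL7 at 2.00, 2.81 and 2.62 CPM. PECAM1 passed 1 CPM in replicate 1 alone. In the list for neuron, muscle, liver and erythroid cells 14 of 16 were under 1 CPM, and albumin as ALB stood at 0.0610, 0.0530 and 0.115 CPM. SYT1, the calcium sensor of synaptic vesicles, stood at 178, 149.6 and 128 CPM and DES, the muscle filament desmin, at 2.21, 1.45 and 1.47 CPM.

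HOX genes, which record position along the body axis, were divided by cluster. Of 39 genes, 11 (28.2%) were under 1 CPM in all 3 libraries, against 39.1% of protein-coding genes. The HOXD cluster held 8 of these 11, and only HOXD9 there was at 1 CPM or more (5.96, 7.65 and 6.91 CPM). In clusters A, B and C, 1 gene each was under 1 CPM, of 11, 10 and 9 genes. HOXC10 stood at 51.7, 52.9 and 59.01 CPM and HOXB6 at 51.6, 43.7 and 49.5 CPM. HOXB9 stood at 44.1, 48.7 and 49.1 CPM, HOXA10 at 37.4, 30.1 and 35.6 CPM and HOXB13, the most posterior of its cluster, at 3.02, 2.67 and 2.73 CPM.

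Stem cell genes and Wnt feedback genes were mostly detected. Of 32 in the list, 4 (12.5%) were under 1 CPM, against 39.1% of protein-coding genes, and 12 had a mean of 100 CPM or more. NKD1, a feedback inhibitor that binds Dishevelled, stood at 2344, 1858 and 1975 CPM. AXIN2, a scaffold of the β-catenin destruction complex and a classic TCF target, stood at 249.8, 206 and 232 CPM. NOTUM, an enzyme that inactivates Wnt ligands, stood at 215, 167 and 211 CPM. Replicate 2 was the lowest for all 3. RNF43, a ligase that removes Wnt receptors, stood at 141, 140.4 and 140.00 CPM with nearly equal libraries. Among the R-spondin receptors, LGR5 stood at 52.8, 44.6 and 48.5 CPM, LGR6 at 86.2, 84.3 and 81.02 CPM and LGR4 at 12.9, 9.86 and 9.45 CPM. Per kilobase LGR6 made up 55.4% of the 3, LGR5 39.9% and LGR4 4.75%, and LGR6 stayed first with 55.4% to 66.2% over the 4 lengths. LGR5 ranked 4440 of 26600 per kilobase, or 4440 to 5885 over the lengths. ASCL2, a factor of crypt stem cells, stood at 25.8, 27.6 and 35.4 CPM and SMOC2 at 9.78, 9.30 and 10.9 CPM. The 4 genes under 1 CPM were OLFM4, a glycoprotein of human crypt stem cells, the RNA-binding MSI1, the reserve cell marker HOPX and the Wnt inhibitor DKK4.

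Of 19 Wnt ligands 11 (57.9%) were under 1 CPM, against 39.1% of protein-coding and 54.6% of all genes. WNT7B (21.3, 20.6 and 18.4 CPM) and WNT3 (12.2, 10.7 and 10.8 CPM) were the only Wnt ligands with a mean over 10 CPM. Of 28 receptors and core components 2 were under 1 CPM, the receptors FZD2 and FZD8. CTNNB1, which encodes β-catenin, stood at 436, 404 and 419 CPM, the co-receptor LRP5 at 395, 364 and 373 CPM and the Frizzled receptor FZD5 at 64.1, 56.7 and 59.04 CPM. APC itself, the scaffold truncated in this line, stood at 60.00, 58.6 and 57.2 CPM.

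Surface markers used to sort colon cancer stem cells did not lie at 1 level. Of 22 genes 4 (18.2%) were under 1 CPM, against 39.1% of protein-coding genes: DPP4, THY1, the chemokine receptor CXCR4 and the drug pump ABCG2. PROM1, the pentaspan protein CD133, stood at 16.8, 18.04 and 17.5 CPM and ranked 8671 per kilobase. CD44, the hyaluronan receptor, stood at 18.8, 17.2 and 15.8 CPM and ALCAM, an adhesion molecule, at 27.9, 28.3 and 26.8 CPM. The integrins ITGA6 (519, 489 and 429.8 CPM) and ITGB1 (376, 367 and 326 CPM) ranked 680 and 813 per kilobase, against 8723 for CD44 and 7594 for ALCAM. ALDH1A1, an aldehyde dehydrogenase that gives the ALDEFLUOR signal in some tumours, stood at 19.2, 5.96 and 6.39 CPM, and its mean of 10.5 CPM became 6.17 CPM over replicates 2 and 3. ALDH1B1 varied less, at 69.3, 72.3 and 71.5 CPM.

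Of 19 genes of pluripotent and embryonic cells, 9 (47.4%) were under 1 CPM in all 3 libraries, a share between those of protein-coding (39.1%) and of all genes (54.6%). SOX2, a core pluripotency factor, stood at 138, 106 and 112 CPM, while its partners POU5F1 at 1.14, 1.70 and 1.68 CPM and NANOG at 0.183, 0.0884 and 0.148 CPM were near or under 1 CPM. HMGA1, an architectural chromatin protein, stood at 2747, 2611 and 2786 CPM and ranked 38 per kilobase. The oncofetal RNA-binding protein IGF2BP1 stood at 267, 240.3 and 252 CPM and HMGA2 at 84.5, 70.9 and 67.96 CPM. LIN28B, which blocks let-7 maturation, had no read.

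**Figure D3:**
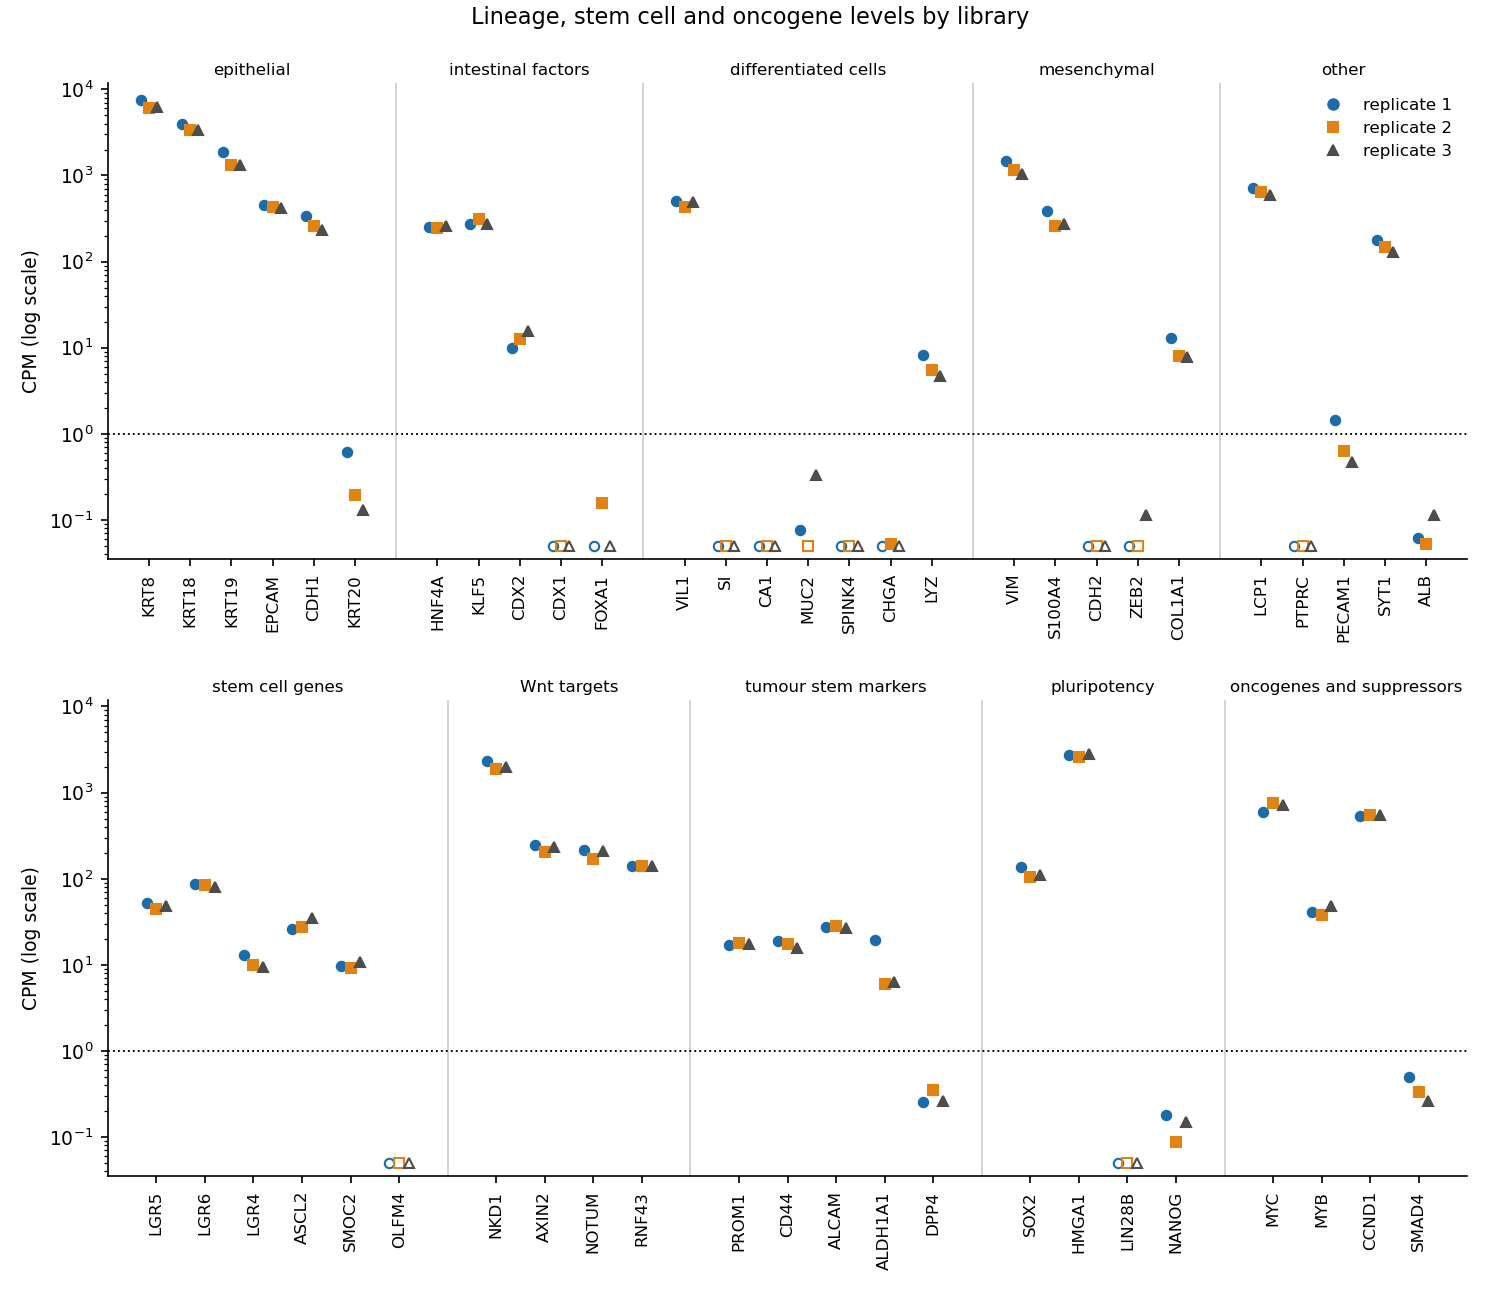
CPM of single genes in each untreated library (y axis, log scale), grouped by cell type or role, with 1 point per replicate and a dotted line at 1 CPM. Open symbols are values under 0.05 CPM drawn at 0.05. KRT8, KRT18, KRT19, VIM, NKD1 and HMGA1 lie above 1000 CPM in all 3 libraries, and CDX1, SI, CA1, OLFM4 and LIN28B at the floor.

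Receptors for the growth factors in the medium were unequal. EGFR, the receptor for EGF, was low at 2.52, 1.94 and 1.40 CPM (165, 110 and 85 reads). ERBB3, a family member that signals through its partners, stood at 104, 96.5 and 96.3 CPM and ERBB2, which has no ligand of its own, at 22.97, 25.5 and 26.5 CPM, whereas ERBB4 was under 1 CPM. Per kilobase ERBB3 made up 76.7% of the family, ERBB2 21.9% and EGFR 1.42%, and this order was the same under all 4 lengths. FGFR4 stood at 122, 118 and 123 CPM and FGFR1 at 87.4, 82.9 and 81.9 CPM, or 71.7% and 24.9% of the FGF receptors per kilobase. FGFR3 stood at 8.94, 8.52 and 9.04 CPM and FGFR2 was under 1 CPM. IGF1R, the receptor for insulin-like growth factors, stood at 78.2, 91.8 and 85.3 CPM and INSR, the insulin receptor, at 8.48, 11.1 and 10.9 CPM, both lowest in replicate 1. Over the 16 receptors and adaptors of this list 4 (25%) were under 1 CPM, against 39.1% of protein-coding genes.

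Among 25 other receptor tyrosine kinases 13 (52.0%) were under 1 CPM, against 39.1% of protein-coding and 54.6% of all genes, including RET, KIT, PDGFRA and ALK. EPHA2 stood at 345, 337 and 289.6 CPM, MET, the receptor for hepatocyte growth factor, at 249, 253 and 214 CPM, DDR1, a collagen receptor, at 143, 128 and 117 CPM and MST1R at 99.2, 114 and 117 CPM. EPHA2, DDR1 and MET were lowest in replicate 3 and MST1R in replicate 1. Of 36 ligands 18 (50%) were under 1 CPM, a share that also lay between those of protein-coding and of all genes, with no read for HGF, FGF2 and IL6. BMP4, a ligand of the BMP pathway, stood at 237, 178 and 176 CPM and FGF19, a ligand of FGFR4, at 108, 128 and 126 CPM. The EGF family ligands AREG (29.3, 27.98 and 15.8 CPM) and EREG (20.8, 17.7 and 10.3 CPM) were lowest in replicate 3. VEGFA, the angiogenic factor, stood at 34.8, 77.5 and 73.3 CPM, with replicate 1 below both others.

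The RAS, RAF and PI3K pathway was detected throughout: 0 of 35 genes were under 1 CPM, against 39.1% of protein-coding genes. Of the 35, 34 had a mean of 10 CPM or more. NRAS stood at 101, 98.6 and 94.8 CPM and HRAS at 42.97, 43.3 and 43.8 CPM. The kinases BRAF and MAP2K1 stood at 42.7, 43.4 and 40.5 CPM and 96.2, 94.7 and 94.1 CPM, and both were nearly equal between libraries. Feedback genes of the pathway stood at 77.8, 94.9 and 80.7 CPM for the phosphatase DUSP6, 80.1, 86.5 and 74.5 CPM for SPRY4 and 172, 162 and 169.7 CPM for the ETS factor ETV4. EGR1, an immediate early gene, varied more, at 100.2, 140.5 and 71.2 CPM.

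MYC stood at 588, 755 and 711 CPM, with the lowest value in replicate 1, and ranked 197 per kilobase (157 to 197 over the 4 lengths). It made up 99.7% of the MYC family per kilobase, since MYCL stood at 1.30, 2.07 and 1.94 CPM and MYCN had 4, 11 and 13 reads. Its dimer partner MAX stood at 90.4, 86.01 and 89.4 CPM. Among 42 other oncogenes 3 (7.14%) were under 1 CPM, against 39.1% of protein-coding genes: GLI1, PRAME and ERG. CCND1, cyclin D1, stood at 528, 549 and 546 CPM and made up 68.4% of the D cyclins per kilobase, with CCND3 at 112, 124 and 127 CPM and CCND2 at 1.13, 1.77 and 1.89 CPM. All 3 cyclins were lowest in replicate 1. LCK, a SRC family kinase best known from T cells, stood at 236, 204 and 195 CPM, and SRC itself at 23.96, 24.3 and 24.7 CPM. The survival gene BCL2L1 stood at 381, 319.8 and 329 CPM and MCL1 at 244, 257 and 233 CPM, and the related BCL2 at 2.30, 2.35 and 2.37 CPM. MYB, a factor of crypt progenitors, stood at 41.3, 38.4 and 47.7 CPM.

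Of 31 tumour suppressors 2 (6.45%), SMAD4 and DCC, were under 1 CPM, against 39.1% of protein-coding genes. SMAD4 stood at 0.503, 0.336 and 0.263 CPM, from 33, 19 and 16 reads, while its partners SMAD2 at 47.02, 50.1 and 49.2 CPM and SMAD3 at 53.2, 44.5 and 45.6 CPM and the receptor TGFBR2 at 129.6, 132 and 125 CPM were present. CDKN1A, the cell cycle inhibitor p21, stood at 9.49, 10.5 and 7.80 CPM. CDKN2A, the locus of p16 and ARF, stood at 126, 144 and 144 CPM. CDKN2A was lowest in replicate 1 and CDKN1A in replicate 3. In the mismatch repair list only MGMT, which repairs alkylated guanine, was under 1 CPM of 13 genes. Cancer-testis antigens were mostly undetected: 24 of 25 (96%) were under 1 CPM and 18 had no read. MAGEB2 alone was at 1 CPM or more, at 3.42, 3.69 and 3.47 CPM. For members with near-identical copies these counts are uncertain, since the handling of reads that match several genes is not given. For antigen presentation, HLA-C stood at 182, 205 and 198 CPM. HLA-B stood at 2.90, 3.78 and 4.08 CPM. The values of both HLA-C and HLA-B are uncertain because the HLA genes are nearly alike and the handling of reads that match several genes is not given. Class II genes HLA-DRA and HLA-DRB1 had no read.

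**Figure D4:**
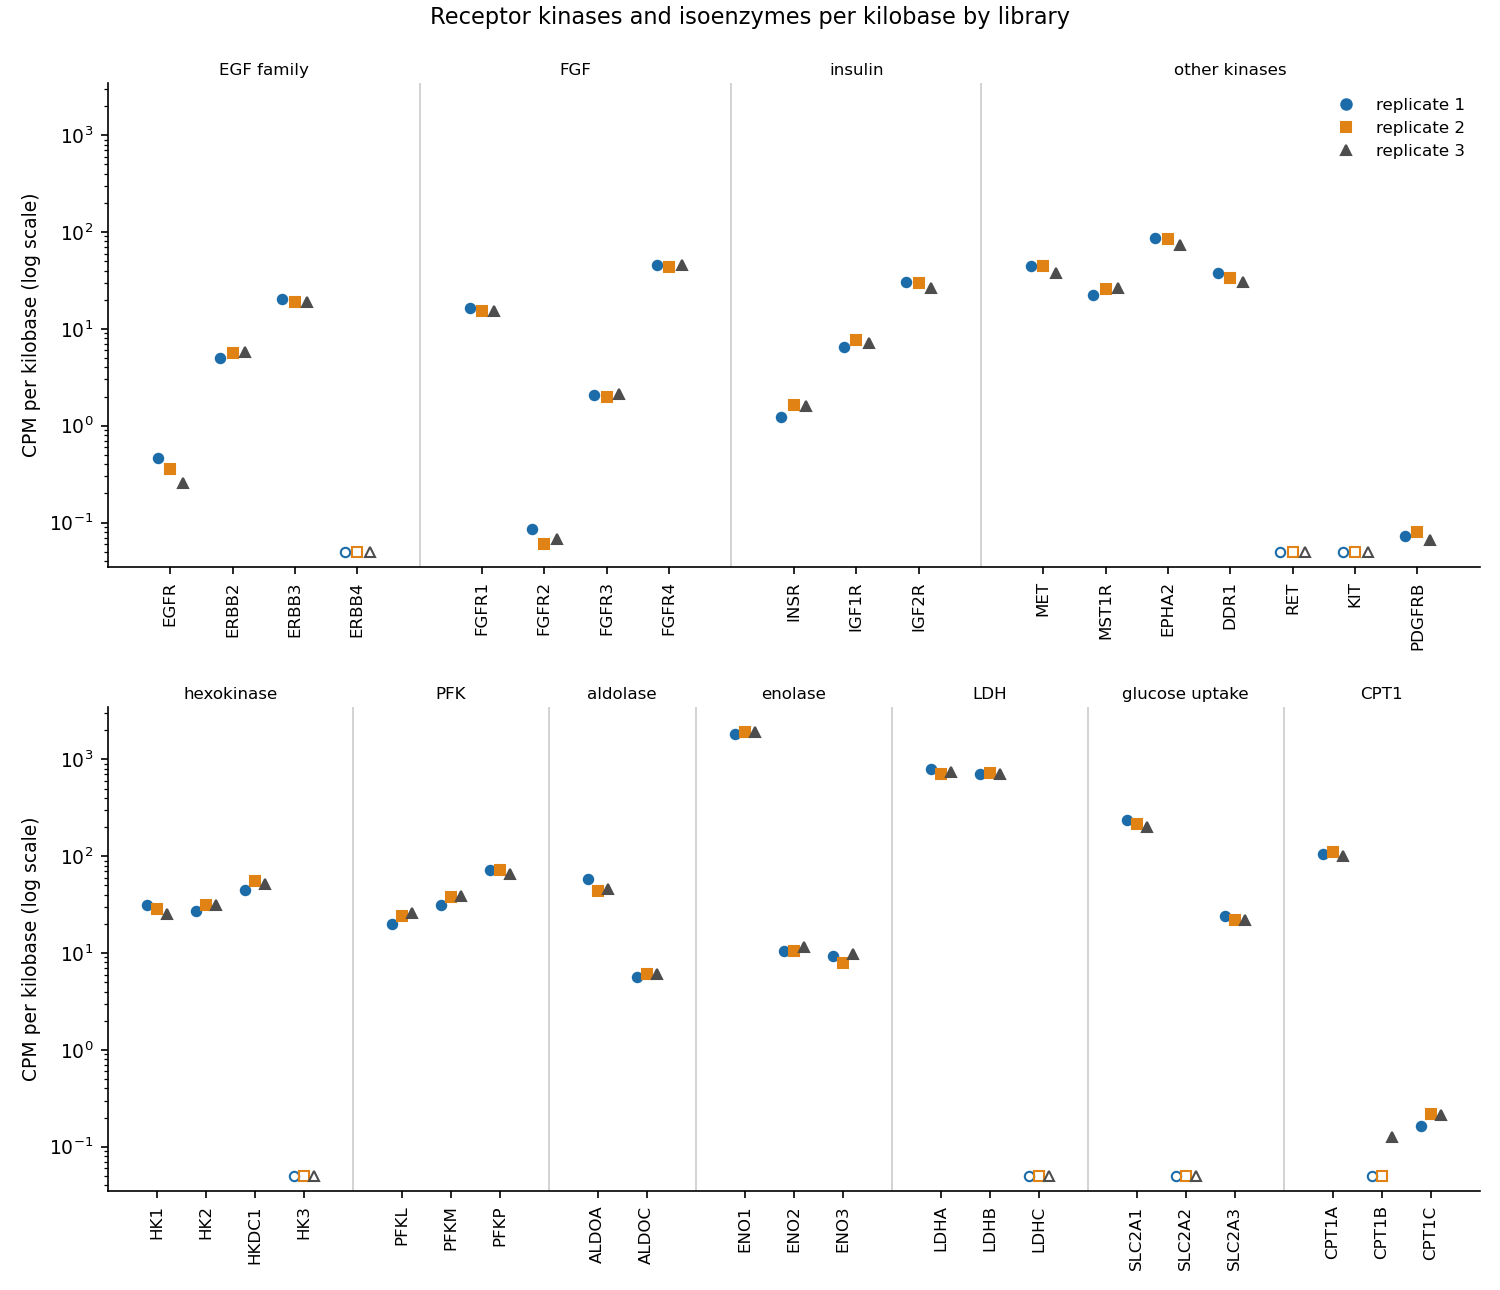
CPM per kilobase of transcript (y axis, log scale) of receptor kinases (top) and isoenzymes of metabolism (bottom), with 1 point per replicate. Open symbols are values under 0.05 CPM per kilobase drawn at 0.05. ERBB3 and FGFR4 lead their families, and HKDC1, PFKP, ENO1, SLC2A1 and CPT1A lead theirs, while LDHA and LDHB overlap.

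Glycolytic genes were abundant, and most families compared had a leading isoenzyme. The 13 main genes from GPI to LDHB took 1.83%, 1.71% and 1.72% of all reads. PKM, pyruvate kinase, stood at 4774, 3847 and 3892 CPM, GAPDH at 4261, 3989 and 4002 CPM and ENO1 at 3243, 3403 and 3415 CPM, and all 3 were among the first 20 per kilobase. Over the 4 lengths GAPDH ranked 6 to 12, PKM 17 to 25 and ENO1 14 to 28. HKDC1, a hexokinase outside the classical forms, stood at 167, 206 and 189 CPM and made up 46.4% of hexokinase transcripts per kilobase, against 27.4% for HK2 and 26.2% for HK1. The shares of HK2 and HK1 overlapped between libraries. PFKP made up 54.1% of phosphofructokinase, with 51.7% to 54.8% over the 4 lengths. LDHA made up 51.4% and LDHB 48.6% of lactate dehydrogenase, and their order changed with the length used. SLC2A1, the transporter GLUT1, stood at 869, 794 and 741 CPM and made up 90.4% of the 5 SLC2A transporters compared. ALDOA stood at 96.6, 73.02 and 76.2 CPM, and this value is uncertain because the table holds an overlapping entry for a longer transcript at the same place. The share of the 13 main genes includes ALDOA and is uncertain to that extent. Of 41 genes in this list 12 (29.3%) were under 1 CPM, against 39.1% of protein-coding genes, among them the liver forms PKLR and SLC2A2. Enzymes that run glucose synthesis were under 1 CPM for PCK1, FBP1 and G6PC, while the mitochondrial PCK2 stood at 20.4, 60.4 and 61.7 CPM.

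Genes of the citric acid cycle were detected with 3 of 36 (8.33%) under 1 CPM, against 39.1% of protein-coding genes. CS, citrate synthase, stood at 571, 531 and 554 CPM, MDH2 at 428, 438 and 452 CPM and OGDH at 250.01, 231 and 224 CPM. Of the NADP-dependent isocitrate dehydrogenases, cytosolic IDH1 stood at 98.3, 86.8 and 85.8 CPM and mitochondrial IDH2 at 19.3, 19.2 and 20.6 CPM. Of the pyruvate dehydrogenase kinases PDK1 stood at 16.4, 17.4 and 18.7 CPM and PDK4 was under 1 CPM. In the pentose phosphate pathway TKT, transketolase, stood at 1019.8, 1026 and 1024 CPM, nearly equal in all 3 libraries.

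Lipid synthesis genes were abundant, with SCD at rank 206 and FASN at rank 279 per kilobase. FASN, fatty acid synthase, stood at 2111, 1808 and 1901 CPM, SCD, which desaturates its product, at 1789.6, 1475 and 1474 CPM and ACLY, which supplies acetyl-CoA, at 726, 679 and 669 CPM. All 3 were highest in replicate 1. CPT1A, the gate of mitochondrial fatty acid oxidation, stood at 268, 280.3 and 258 CPM and made up 99.7% of the CPT1 family per kilobase. Of 34 cholesterol genes 4 (11.8%) were under 1 CPM, against 39.1% of protein-coding genes, and 18 had a mean of 100 CPM or more. Of 29 cholesterol genes at 5 CPM or more in every library, 24 (82.8%) were highest in replicate 1, against 33.4% of all genes at that level.

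Several amino acid genes differed between the libraries. SLC1A5, a glutamine transporter, stood at 1249, 1305 and 1299.8 CPM and SLC7A5, which imports large neutral amino acids, at 773, 1105 and 1090.5 CPM. PHGDH, the first enzyme of serine synthesis, stood at 49.98, 183 and 185 CPM and PSAT1, the next, at 132, 265 and 263 CPM. ASS1, which joins citrulline to aspartate, stood at 27.04, 97.9 and 118 CPM. For these last 4 genes replicate 1 was the lowest and lay apart from the other two. SHMT2 of mitochondrial one-carbon metabolism stood at 394, 577 and 599 CPM and MTHFD2 at 149, 235 and 229.6 CPM, again lowest in replicate 1. ASNS, asparagine synthetase, stood at 1.91, 6.38 and 5.42 CPM, a value that is uncertain because the table holds an overlapping read-through entry. Of 34 members at 5 CPM or more in every library 26 (76.5%) were lowest in replicate 1, against 49.8% of all genes at that level, and 9 of them had a highest value at least 1.5 times the lowest. The median ratio of highest to lowest library was 1.29 over these members and 1.11 over all genes at that level. Of all 46 members 10 (21.7%) were under 1 CPM, against 39.1% of protein-coding genes, including BCAT1 and PRODH.

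Detoxification genes included NQO1, a quinone reductase controlled by the factor NRF2, at 1061, 1169 and 1135 CPM. Its rank per kilobase was 44, or 44 to 138 over the 4 lengths, and its mean was 1122 ± 55.1 CPM (SD, n = 3). GSTP1, a glutathione transferase, stood at 674, 676 and 707 CPM, TXNRD1, thioredoxin reductase, at 399, 438 and 397 CPM and GPX2, the intestinal glutathione peroxidase, at 274, 284 and 287 CPM. GSTP1 and GPX2 were highest in replicate 3 and TXNRD1 in replicate 2. NFE2L2, which encodes NRF2, stood at 65.02, 68.1 and 70.9 CPM and its inhibitor KEAP1 at 119.7, 124 and 129.7 CPM. GSTA1 had no read and GSTM1 had 1, 1 and 0 reads. Of 45 genes of this list 7 (15.6%) were under 1 CPM, against 39.1% of protein-coding genes. Of 26 cell cycle genes all but CCNA1 were at 1 CPM or more in all 3 libraries. MKI67, the proliferation antigen, stood at 1089, 1112 and 1051 CPM, MCM2 of the replicative helicase at 318, 357 and 358 CPM and PCNA at 328, 381 and 389 CPM. Of 25 cell cycle members at 5 CPM or more in every library, 21 (84.0%) were lowest in replicate 1, against 49.8% of all genes at that level.

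The spread between replicates was small for most genes. Over the 10082 genes of at least 5 CPM in every library, the median ratio of the highest to the lowest library was 1.11 and the 90th percentile was 1.31. A ratio of 1.5 or more was found in 289 genes (2.87%), and replicate 1 held an extreme in 284 of them. A ratio of 2 or more was found in 37 genes, of which replicate 1 was lowest in 14 and highest in 23, while 0 genes differed by that much between replicates 2 and 3. The widest 10 were ASS1, PHGDH, PRSS2, DDIT4, SLC1A4, ALDH1A1, SESN2, PCK2, TUBA1A and CACNG4. DDIT4, an inhibitor of mTORC1 that responds to stress, stood at 23.7, 82.3 and 73.9 CPM and SESN2, another, at 8.85, 27.2 and 22.3 CPM. SLC1A4, which carries serine and alanine, stood at 6.53, 20.5 and 22.5 CPM. All 3 were lowest in replicate 1, as were ASS1, PHGDH, PCK2 and PRSS2. ALDH1A1, TUBA1A (32.6, 11.2 and 12.6 CPM) and CACNG4 (16.3, 5.76 and 6.29 CPM) were highest there. PRSS2 (68.00, 188 and 244 CPM) and TUBA1A belong to families of near-identical copies, so how reads were split between the copies is uncertain.

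**Figure D5:**
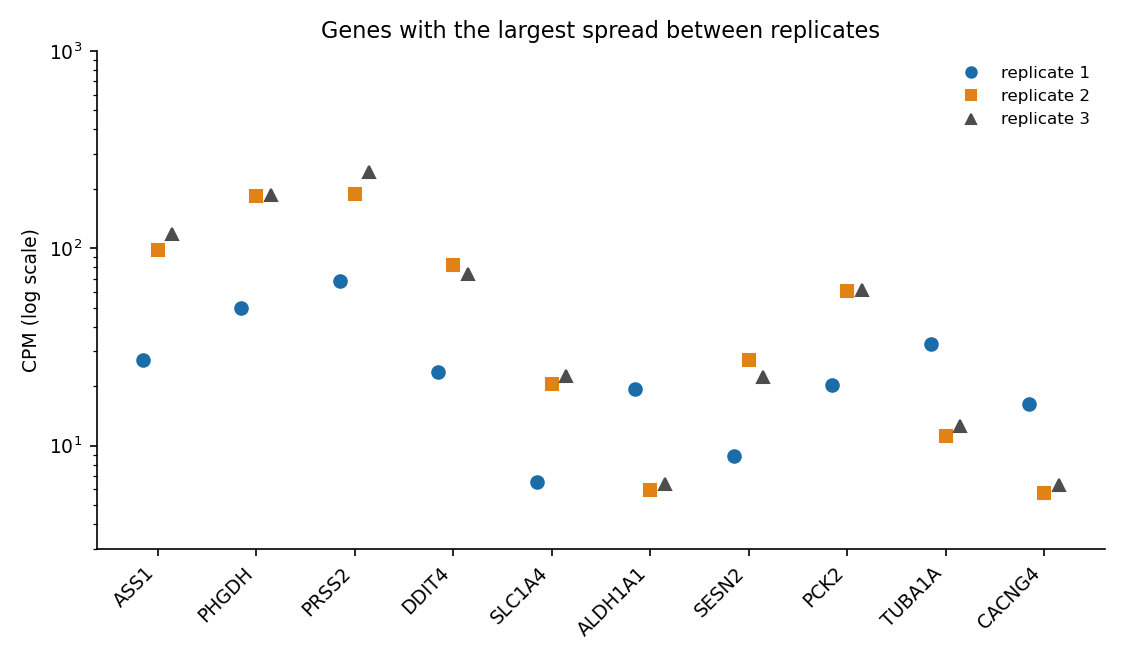
CPM (y axis, log scale) of the 10 genes with the largest ratio of highest to lowest library among those of at least 5 CPM in every library, with 1 point per replicate. Replicate 1 lies below the others for 7 genes and above them for ALDH1A1, TUBA1A and CACNG4, and replicates 2 and 3 lie closer to each other than to replicate 1 for all 10.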

How the data were processed

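The authors deposited a table of raw counts, whole-number reads per gene for 28307 genes. Per the labels' protocols, TRIzol was used to isolate RNA, and the NuGEN kit Universal Plus mRNA-seq to build libraries. Per the submitters' processing notes, the build was hg38 and the tools were TopHat2 2.1.1, featureCounts 2.0.0, cutadapt 3.4, bcl2fastq 2.20.0.422, DESeq2 1.26.0, MultiQC 1.10.1 and FastQC 0.11.9. Which annotation and strand setting were used, and how multi-mapping reads were handled, is not given in the sources used here.

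The 3 untreated columns were divided by their totals and multiplied by 1000000. Lengths were the median over GENCODE 29 transcripts whose coding part was at least 90% of the gene's longest, and alternatives were the principal transcript, the exon union and the longest transcript. A gene was set as low when under 1 CPM in all 3 libraries. No test was run, since nothing was compared between groups. The text names the 20 highest genes per kilobase, the 10 highest by CPM, 5 markers, members of 38 further gene lists, the 10 widest genes between replicates, and others only as chosen after their values were seen. The markers and lists were chosen with earlier results of these data known, so no list is independent evidence. Scripts ran in Python 3.11.15, and R 4.3.3 with edgeR 4.0.16 and DESeq2 1.42.0 gave the alternative scalings. The spread calculation was tested on simulated data. The protein-coding genes of the mitochondrial genome were not looked at separately, and none was among the 20 highest by CPM.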

Additional observations from a re-analysis of the deposited data

How the results depend on the processing

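Another threshold left 14335 genes under 0.5 CPM in all 3 libraries and 16540 under 2 CPM, against 15456 at 1 CPM. TMM and DESeq2 size factors both gave 15473, thinning to the smallest total gave 15458, and leaving out 1 replicate gave 15527 to 15584. At 2 CPM the members under the threshold became 4 for Wnt receptors and 6 for other oncogenes, and at 0.5 CPM 1 for Wnt receptors, 1 for tumour suppressors and 0 for mismatch repair. Among the 947 named genes, those with a mean of at least 1 CPM had means of 0.992 to 1.007 times the main value under the 2 scalings. Their means were 0.586 to 1.33 times the main value without replicate 1, 0.8003 to 1.259 without replicate 2 and 0.768 to 1.20 without replicate 3. Without replicate 1 the mean fell by over 1.5 times for 6 of them, from 10.5 to 6.17 CPM for ALDH1A1, from 18.8 to 11.9 CPM for TUBA1A, from 9.46 to 6.03 CPM for CACNG4, from 1.1 to 0.724 CPM for FABP1, from 1.87 to 1.2 CPM for IGF2, and from 1.06 to 0.68 CPM for IHH. Of the 20 highest genes per kilobase, 11 were also among the 20 highest with no division by length, and 15 to 17 under the other lengths. The median ratio of highest to lowest library was 1.1141 over 3 libraries, and 1.0442 to 1.0854 with a replicate left out, where only 2 libraries enter. It was lowest without replicate 1. No paired analysis was possible because nothing was compared between groups. Depth limits the low end: under 0.0530 CPM a level could not be told from 0 in the smallest library.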

Other observations

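Long noncoding RNAs took 0.726% of the reads, and 544 of 4918 (11.1%) were at 1 CPM or more in all 3 libraries. MALAT1, a nuclear RNA of speckles, stood at 327, 364 and 366 CPM, and SNHG29, the host of small nucleolar RNAs, at 318, 353 and 366 CPM. NORAD, which binds PUMILIO proteins, stood at 280.4, 282 and 256 CPM. ESRG, first described in human embryonic stem cells, stood at 335, 222 and 232 CPM, with replicate 1 above both others. DANCR stood at 155, 162 and 168 CPM and KCNQ1OT1, the antisense RNA of an imprinted locus, at 162, 180.2 and 176 CPM, a value that is uncertain because the strand setting is not given. These genes were chosen after their values were seen.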
